A study of Homo sapiens with 6 samples.

Results

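Aminoacyl-tRNA synthetase transcripts were measured in HEK293, a human cell line derived from embryonic kidney, after treatment with the compound B23 and after the solvent DMSO. They were taken as the rows of the deposited expression table that carry 1 of 36 gene symbols, and all 36 were found among 15496 rows. Of these, 20 encode cytosolic enzymes and 16 encode mitochondrial enzymes. GARS and KARS, each of which makes both a cytosolic and a mitochondrial form from the same gene, were counted as cytosolic, and the table does not separate their forms.

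Polyadenylated RNA was sequenced from 3 libraries of HEK293 cells treated with B23, named a quinolinol in the labels, and from 3 libraries of HEK293 cells given DMSO. Neither the dose nor the time of treatment is given in the labels used here, and nothing says that the libraries came from separate cultures. The p-values therefore reflect the spread among these 6 libraries alone, which may be technical. Values are CPM as the authors deposited them, read counts over a divisor of each library. Recovered reads of the listed genes numbered 40950318 to 45319519 in B23 libraries and 45732612 to 47444126 in DMSO libraries. Each member had at least 144 reads in every library. The HEK293 markers VIM, KRT8, KRT18, NEFL, NEFM and PAX2 were all measured and did not move together in B23: VIM (1.85-fold), KRT8 (2.77-fold) and KRT18 (2.14-fold) were higher, and NEFL (1.77-fold), NEFM (1.61-fold) and PAX2 (4.22-fold) were lower. PAX2 was the least abundant, at 1.38 ± 0.204 CPM in B23 and 5.85 ± 0.712 CPM in DMSO (SD, n = 3 each). Markers of other cell types (ALB, PTPRC, CDH5 and MYH7) have no row in the table used here.

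Aminoacyl-tRNA synthetases join each amino acid to its tRNA, the step that fixes the genetic code in translation. Cytosolic enzymes serve the ribosomes of the cytoplasm, while a separate set, encoded in the nucleus and imported, charges the tRNAs of the mitochondrial genome. Several cytosolic enzymes sit together in the multi-tRNA synthetase complex on 3 scaffold proteins, AIMP1, AIMP2 and EEF1E1. Many cytosolic synthetase genes are known targets of ATF4, the transcription factor that is made when amino acids run short or the endoplasmic reticulum is stressed.

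In B23 more cytosolic enzymes rose than fell. More mitochondrial enzymes fell than rose, and all tested genes leaned the same way. Of the 20 cytosolic members, 12 rose, 6 fell and 2 were not called, with a median log2 difference of 0.40. After quantile normalization these counts were equal, with 9 higher and 9 lower. Of the 16 mitochondrial members, 6 rose, 9 fell and 1 was not called, with a median of -0.21. The test was limma on log2(CPM + 0.5) over the 14792 genes whose mean reached 1 CPM, at a Benjamini-Hochberg adjusted p under 0.05. In that test 88.6% of all genes were called, 39.6% higher and 49.0% lower, with a median of -0.10, so a call by itself sets no member apart. At an adjusted p under 0.01 the share was 85.1%, with DESeq2 on recovered reads 87.1% and with edgeR 88.9%. Differences are B23 minus DMSO on the log2(CPM + 0.5) scale, and fold changes are ratios of mean CPM.

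Together the 20 cytosolic enzymes summed to 4733 ± 58.1 CPM in B23 and 3709 ± 29 CPM in DMSO (SD, n = 3 each), a ratio of 1.28. The 16 mitochondrial enzymes summed to 597.9 ± 3.53 CPM in B23 and 727.6 ± 0.848 CPM in DMSO, a ratio of 0.822. These sums follow the deposited CPM, in which all listed genes summed to 890367 to 900113 CPM in B23 and 745216 to 753745 CPM in DMSO. The ratios are thus not changes in a share of the listed reads. The RNA came from whole cultures, in which fewer cells with a transcript and less of it per cell cannot be told apart. The B23 and DMSO values did not overlap in 35 of the 36 members, where 88.9% of all tested genes did not overlap. At least 2-fold rises were called for 3 cytosolic and 2 mitochondrial members, beside 9.65% of all genes, and at least 2-fold falls for 0 cytosolic and 4 mitochondrial members, beside 15.8% of all genes. The scaling of the libraries matters for the cytosolic median, which was 0.15 once each library was rescaled to an equal total over the listed genes and -0.028 after quantile normalization. Across all genes, 55.3% of the calls on the deposited CPM were lower, against 67.5% with equal totals, a scaling that moved the median of all genes by -0.24. Relative to the median of all genes, the cytosolic median stood 0.51 higher as deposited, 0.49 higher with equal totals and at -0.0010 after quantile normalization, and the mitochondrial median stood at -0.11, -0.12 and -0.12.

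**Figure D1:**
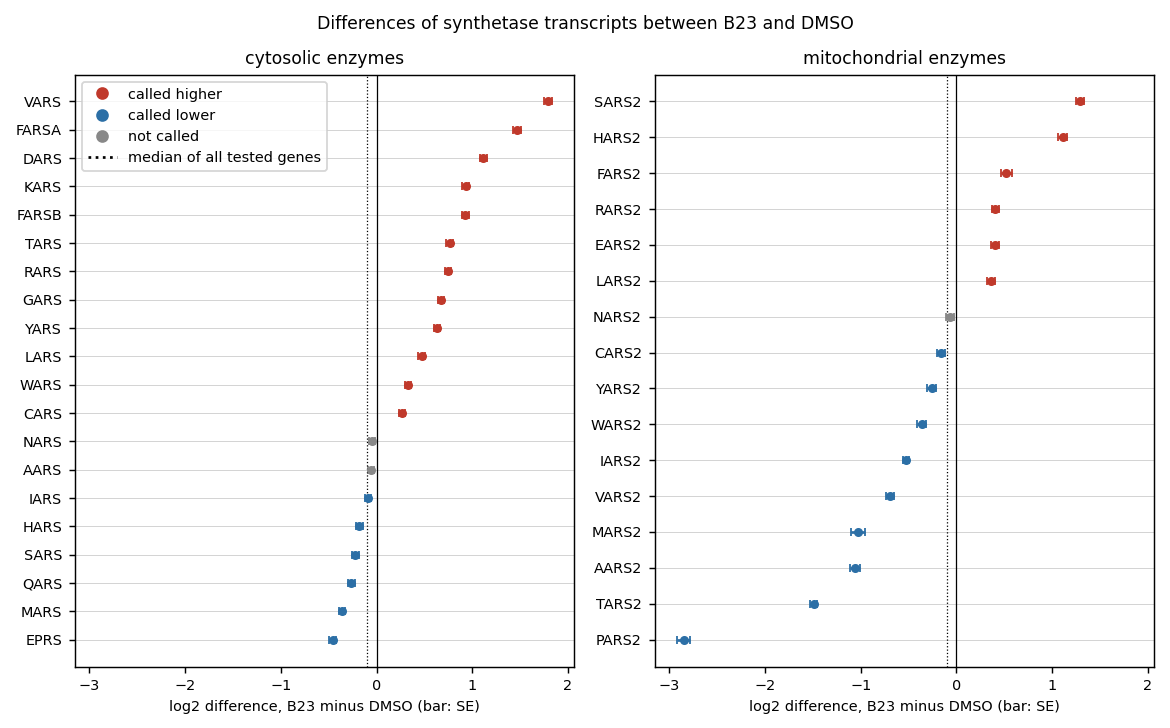
Log2 differences (B23 minus DMSO, x axis) of the 20 cytosolic enzymes (left) and 16 mitochondrial enzymes (right), with bars of 1 SE from the limma fit. Cytosolic differences run from -0.46 (EPRS) to 1.79 (VARS) and mitochondrial ones from -2.85 (PARS2) to 1.29 (SARS2), and the dotted line marks the median of all tested genes at -0.10.

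The largest rise of any member was that of VARS, the valyl-tRNA synthetase gene on chromosome 6 from 31777518 to 31795953 in GRCh38. VARS had 154.2, 140.3 and 154.6 CPM in the B23 libraries, against 41.4, 42.5 and 44.8 CPM in the DMSO libraries. Every B23 library was more than 3 times as high as any DMSO library, and the mean was 3.49-fold higher (log2 difference 1.79, SE 0.041, adjusted p = 1.14e-21 in limma). VARS contains a row named RF00019, a small RNA name shared by several loci, whose mean was 15.1% of that of VARS. FARSA, which encodes the catalytic subunit of phenylalanyl-tRNA synthetase, had 315, 282.2 and 320.3 CPM in B23, against 108.8, 111.3 and 110.8 CPM in DMSO. The groups were far apart, with a 2.77-fold higher mean in B23 (log2 difference 1.46, SE 0.040, adjusted p = 5.57e-20). DARS, the aspartyl-tRNA synthetase gene, was at 133.3, 136.6 and 137.7 CPM in B23, against 60.5, 63.4 and 63.4 CPM in DMSO. Its 3 B23 libraries lay close together and 2.18-fold above DMSO by the mean (log2 difference 1.12, SE 0.035, adjusted p = 1.60e-19). KARS, the lysyl-tRNA synthetase gene of both compartments, had 216.7, 215 and 221.4 CPM in B23, against 110.6, 116.4 and 114.9 CPM in DMSO. It rose 1.91-fold (log2 difference 0.93, SE 0.033, adjusted p = 2.54e-18), and TERF2IP, which overlaps it on the opposite strand and starts 857 bases away, rose as well (log2 difference 0.79).

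The other cytosolic rises were those of FARSB (1.91-fold), TARS (1.70-fold), RARS (1.68-fold), GARS (1.60-fold), YARS (1.55-fold), LARS (1.39-fold), WARS (1.26-fold) and CARS (1.2-fold). TARS, the threonyl-tRNA synthetase gene and the member with the most reads, had 671.8, 711 and 698.5 CPM in B23, against 400.3, 407.8 and 415.8 CPM in DMSO. GARS, whose enzyme charges glycine tRNAs in both compartments, was at 345.8 ± 6.46 CPM in B23 and 216.4 ± 1.81 CPM in DMSO (SD, n = 3 each). WARS, the tryptophanyl-tRNA synthetase gene and a known interferon-gamma target, had 115, 116.3 and 118.4 CPM in B23, against 90.8, 92.5 and 94.4 CPM in DMSO. CARS, the cysteinyl-tRNA synthetase gene, had 131.6, 128 and 135.6 CPM in B23, against 107.3, 109.1 and 112.4 CPM in DMSO. YARS, the tyrosyl-tRNA synthetase gene, had 418.1, 425.7 and 429.8 CPM in B23, against 284.8, 272.6 and 264.7 CPM in DMSO. The groups did not overlap in any of these 5 genes. YARS overlaps S100PBP on the opposite strand, whose mean was 16.5% of that of YARS and which fell. The rises of LARS, WARS and CARS did not hold under quantile normalization, which gave -0.027, -0.029 and -0.13, and CARS stood at 0.012 with equal totals of the listed genes.

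Cytosolic falls stayed within 1.38-fold. EPRS, which fuses the glutamyl- and prolyl-tRNA synthetases in 1 chain, had 215.9, 231.6 and 225.1 CPM in B23, against 305.4, 320.0 and 300.5 CPM in DMSO. The groups were separate, and EPRS was 1.38-fold lower in B23 (log2 difference -0.46, SE 0.036, adjusted p = 1.46e-11 in limma). MARS, the methionyl-tRNA synthetase gene, had 195.6, 189.8 and 192.1 CPM in B23, against 241.9, 248.6 and 252.7 CPM in DMSO, 1.29-fold lower. DDIT3, a stress response gene that overlaps the end of MARS on the opposite strand with a mean of 16.7% of it, fell too (log2 difference -0.64). QARS, the glutaminyl-tRNA synthetase gene, had 163.6, 155.1 and 170.7 CPM in B23, against 187.3, 200.7 and 199.9 CPM in DMSO, 1.2-fold lower. SARS, the seryl-tRNA synthetase gene, had 298.5, 294.9 and 300.2 CPM in B23, against 355.6, 348.7 and 337.4 CPM in DMSO, 1.17-fold lower. In MARS, QARS and SARS all B23 libraries lay below all DMSO libraries, and these falls and that of EPRS held under every alternative run.

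HARS, the histidyl-tRNA synthetase gene, had 69.5, 70.9 and 68.7 CPM in B23, against 83.2, 80.6 and 73.3 CPM in DMSO. Its 1.13-fold fall was called (adjusted p = 0.000331 in limma), but not with median-of-ratios scaling or DESeq2, where the log2 difference was -0.069 and -0.079. IARS, the isoleucyl-tRNA synthetase gene, was 1.07-fold lower (317.5 ± 6.55 CPM in B23 and 338.1 ± 8.98 CPM in DMSO, adjusted p = 0.0173), and this call was lost without B23 replicate 1 (log2 difference -0.075) and without DMSO replicate 2 (-0.078). It was also lost with TMM scaling and edgeR, and the sign turned with median-of-ratios scaling and DESeq2. AARS had 197.6, 194.8 and 196.7 CPM in B23, against 205.5, 207.8 and 201.7 CPM in DMSO, a log2 difference of -0.062 (SE 0.032, adjusted p = 0.0741). NARS had 155.1, 163.3 and 156 CPM in B23, against 162.5, 163.3 and 164.8 CPM in DMSO, a log2 difference of -0.049 (SE 0.033, adjusted p = 0.168), the only member whose groups overlapped. NARS was called lower without B23 replicate 2 (log2 difference -0.072). A p that misses the threshold does not show that alanyl- and asparaginyl-tRNA synthetase transcripts are unchanged: both were called lower with equal totals of the listed genes (-0.31 and -0.30).

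**Figure D2:**
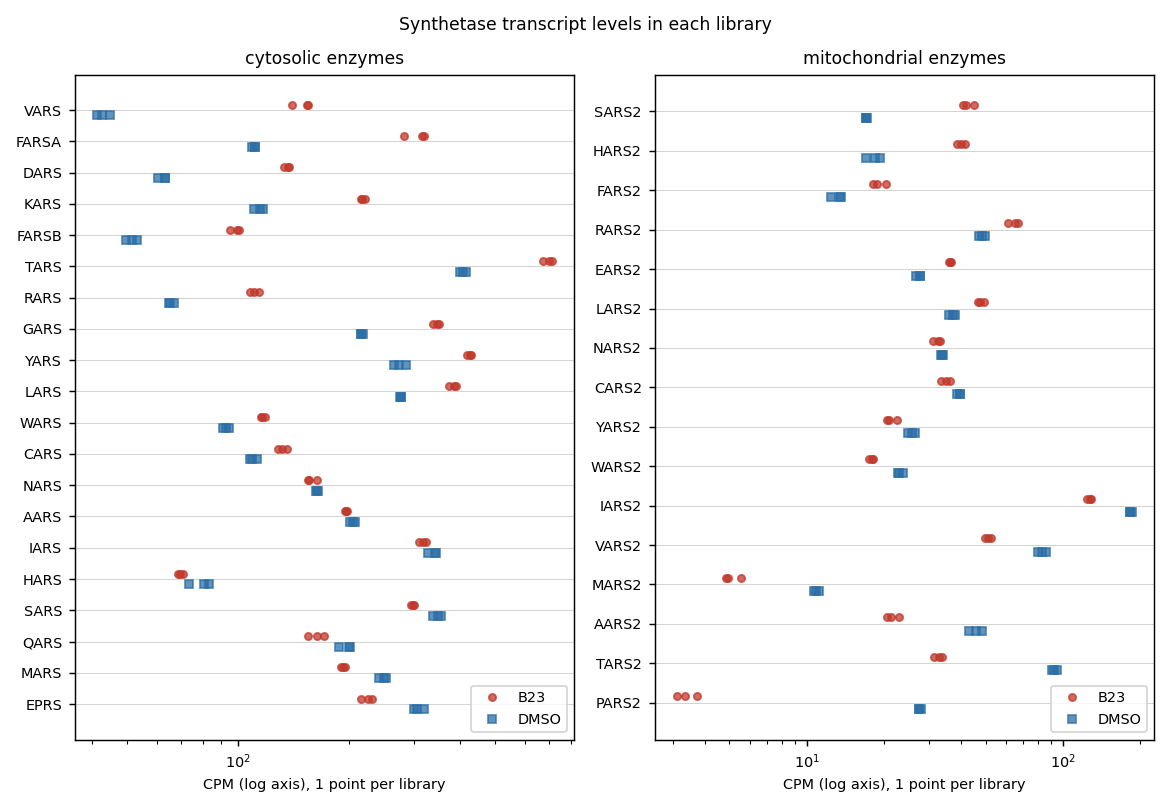
CPM of each member in each library (x axis, log scale), cytosolic enzymes on the left and mitochondrial enzymes on the right, with the 3 B23 libraries as circles above the 3 DMSO libraries as squares. VARS at the top of the left panel and PARS2 at the bottom of the right panel show the widest gaps, at 3.49-fold higher and 8.12-fold lower in B23.

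The enzymes of the multi-tRNA synthetase complex moved both ways, and 2 of its 3 scaffolds rose about 2-fold. Of the 8 enzymes in the complex, DARS, KARS, RARS and LARS rose and EPRS, MARS, QARS and IARS fell, with a median log2 difference of 0.19 that ran from -0.32 to 0.30 over the scalings. The 12 cytosolic members outside it had a median of 0.48, with 8 higher and 2 lower, and 0.046 after quantile normalization. Both counts stand beside 39.6% of all tested genes called higher and 49.0% called lower. AIMP1, a scaffold whose secreted fragment acts as a cytokine, was at 105.2 ± 3.27 CPM in B23 and 51.3 ± 0.396 CPM in DMSO (SD, n = 3 each), 2.05-fold higher (log2 difference 1.03, adjusted p = 1.23e-18 in limma). AIMP2 was at 53.4 ± 0.794 CPM in B23 and 27.7 ± 0.893 CPM in DMSO, 1.93-fold higher. EIF2AK1, on the opposite strand to AIMP2, overlaps it with a mean of 482% of it and rose (log2 difference 0.36), while TBCK, which overlaps AIMP1, rose by 0.97 on the log2 scale. EEF1E1 was only 1.11-fold higher, with overlapping groups, and its call was lost without B23 replicate 2 (log2 difference 0.13) and without DMSO replicate 1 (0.074). It stood at -0.098 with equal totals of the listed genes.

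Synthetases fall into a pair of structural classes with unrelated catalytic folds, and EPRS holds an enzyme of each. Of the 18 other members of class I, 9 rose and 9 fell, with a median log2 difference of 0.087. Of the 17 other members of class II, 9 rose, 5 fell and 3 (AARS, NARS and NARS2) were not called, with a median of 0.52. Of all tested genes, 39.6% were called higher and 49.0% lower, with a median of -0.10. The class medians are given for the deposited CPM only, and no test of the difference between classes was made.

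Phenylalanyl-tRNA synthetase is a tetramer with equal numbers of the FARSA and FARSB subunits. Per kb of mRNA, the ratio of FARSA to FARSB was 5.42, 4.61 and 5.29 in the B23 libraries, against 3.36, 3.55 and 3.65 in the DMSO libraries. The catalytic subunit transcript thus exceeded that of its partner in every library, and by more in all 3 B23 libraries. Its mitochondrial counterpart FARS2, which works as a single chain, rose 1.45-fold.

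The largest fall of any member was that of PARS2, the mitochondrial prolyl-tRNA synthetase gene on chromosome 1 from 54756898 to 54764514. PARS2 had 3.37, 3.13 and 3.73 CPM in B23, against 28.1, 27.5 and 27.5 CPM in DMSO. The 3 libraries of each group lay close together, and the mean was 8.12-fold lower in B23 (log2 difference -2.85, SE 0.064, adjusted p = 4.15e-22 in limma). TARS2, the mitochondrial threonyl-tRNA synthetase gene, had 33.7, 31.4 and 32.8 CPM in B23, against 91.0, 92.3 and 95.1 CPM in DMSO, 2.84-fold lower (log2 difference -1.49, SE 0.038, adjusted p = 4.04e-21). AARS2, the alanine enzyme, had 22.9, 21.3 and 20.6 CPM in B23, against 43.0, 45.7 and 48.3 CPM in DMSO, 2.11-fold lower. In both genes the gap between groups was far wider than the spread within them. MARS2, which charges the mitochondrial methionine tRNA, had 4.94, 5.57 and 4.86 CPM in B23, against 11.2, 10.7 and 10.9 CPM in DMSO, 2.14-fold lower (log2 difference -1.03, SE 0.069, adjusted p = 6.36e-13).

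Smaller mitochondrial falls were those of VARS2 (1.63-fold), IARS2 (1.45-fold), WARS2 (1.3-fold), YARS2 (1.2-fold) and CARS2 (1.12-fold). VARS2, the valine enzyme, had 52.4, 49.9 and 51 CPM in B23, against 86, 79.7 and 83.3 CPM in DMSO. It overlaps GTF2H4 on the same strand, whose mean was 37.0% of that of VARS2 and which fell (log2 difference -0.37). IARS2, with the most reads of the mitochondrial members, was at 127.4 ± 2.35 CPM in B23 and 184.2 ± 1.40 CPM in DMSO (SD, n = 3 each). WARS2, the tryptophan enzyme, had 17.5, 17.9 and 18.2 CPM in B23, against 22.7, 23.7 and 23.1 CPM in DMSO. YARS2, the tyrosine enzyme, had 20.7, 21.1 and 22.6 CPM in B23, against 26.6, 25.7 and 24.8 CPM in DMSO. In both, every B23 library lay below every DMSO library. WARS2 overlaps AL359915.2, which fell, and YARS2 overlaps DNM1L, a mitochondrial fission gene with a mean of 363% of that of YARS2 and a log2 difference of -0.013. CARS2 had 36.4, 33.6 and 35.1 CPM in B23, against 39.6, 39.5 and 38.6 CPM in DMSO, and its call was lost with median-of-ratios scaling, TMM scaling and DESeq2. NARS2 had 31.1, 33.0 and 32.7 CPM in B23, against 33.6, 34.1 and 33.7 CPM in DMSO, and was not called (log2 difference -0.067, SE 0.041, adjusted p = 0.133). Like NARS, it was called lower with equal totals of the listed genes (-0.32).

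Among the mitochondrial rises, SARS2 and HARS2 stood out in size. SARS2, the seryl-tRNA synthetase gene on chromosome 19 from 38915266 to 38930896, had 44.9, 40.8 and 42 CPM in B23, against 17.1, 17.3 and 17 CPM in DMSO. Its mean was 2.49-fold higher (log2 difference 1.29, SE 0.045, adjusted p = 1.90e-18 in limma). HARS2, the histidyl-tRNA synthetase gene on chromosome 5 from 140691426 to 140699318, had 40.0, 41.4 and 38.8 CPM in B23, against 18.5, 17 and 19.3 CPM in DMSO, 2.19-fold higher (log2 difference 1.11, SE 0.049, adjusted p = 1.51e-16). In both genes every B23 library was more than 2 times as high as any DMSO library. FARS2 (1.45-fold) had 18.9, 18.2 and 20.4 CPM in B23, against 13.6, 13.5 and 12.4 CPM in DMSO. RARS2, the arginine enzyme, had 61.3, 66.8 and 64.9 CPM in B23, against 47.3, 49.7 and 48.3 CPM in DMSO, 1.33-fold higher. EARS2, the glutamate enzyme, had 36.8, 36.3 and 36.1 CPM in B23, against 27.6, 27.7 and 26.7 CPM in DMSO, also 1.33-fold higher. LARS2 rose 1.29-fold, to 47.7 ± 1.24 CPM in B23, against 37.1 ± 1.09 CPM in DMSO (SD, n = 3 each), and the 6 mitochondrial rises were called under every alternative. EARS2 overlaps UBFD1 on the opposite strand, which had a mean of 427% of that of EARS2 and rose (log2 difference 0.73).

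Enzymes for the same amino acid were compared between compartments. Each of the 16 mitochondrial members was set against the cytosolic enzyme of its amino acid, with EPRS serving for both EARS2 and PARS2 and FARSA for FARS2. The ratio of mitochondrial to cytosolic transcript was lower in B23 for 13 pairs and higher for 3, and B23 and DMSO ratios did not overlap in 15. Taken singly, 88.9% of all tested genes did not overlap. By an exact two-sided permutation test each of these 15 pairs gave p = 0.1, the smallest that 3 against 3 libraries allows (0.107 adjusted over the 16 pairs). In 8 pairs the enzymes were called in opposite directions: 5 with the mitochondrial one lower and the cytosolic one higher (VARS2, TARS2, YARS2, WARS2 and CARS2), and 3 the other way (SARS2, HARS2 and EARS2). The histidine, cysteine and tryptophan pairs rest on calls of HARS, CARS2, CARS or WARS that were not kept under every alternative. With 39.6% of all tested genes called higher and 49.0% lower, opposite calls are frequent between unrelated genes too. Their share over unrelated pairs was not computed.

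Valine showed the widest shift. Per kb of mRNA, VARS2 was at 41.0%, 43.0% and 39.9% of VARS in B23, against 251%, 227% and 225% in DMSO, so VARS was the more abundant of the pair in every B23 library and VARS2 in every DMSO library. For threonine, TARS2 was at 4.64%, 4.09% and 4.34% of TARS in B23, against 21.0%, 20.9% and 21.2% in DMSO, a 4.79-fold lower ratio. For proline, PARS2 was at 3.33%, 2.89% and 3.54% of EPRS in B23, against 19.6%, 18.4% and 19.5% in DMSO, although EPRS fell as well. In the opposite direction, HARS2 reached 59.4%, 60.3% and 58.3% of HARS in B23, against 23%, 21.8% and 27.2% in DMSO. Similarly, SARS2 was at 17.4%, 16% and 16.1% of SARS in B23, against 5.54%, 5.71% and 5.82% in DMSO, and EARS2 at 49.9%, 46.0% and 47.0% of EPRS in B23, against 26.6%, 25.4% and 26.0% in DMSO. The asparagine pair was the exception, at 24.6% to 25.8% in B23 and 25.2% to 25.7% in DMSO (exact permutation p = 0.5). After quantile normalization the ratio was lower in 10 pairs, not 13.

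**Figure D3:**
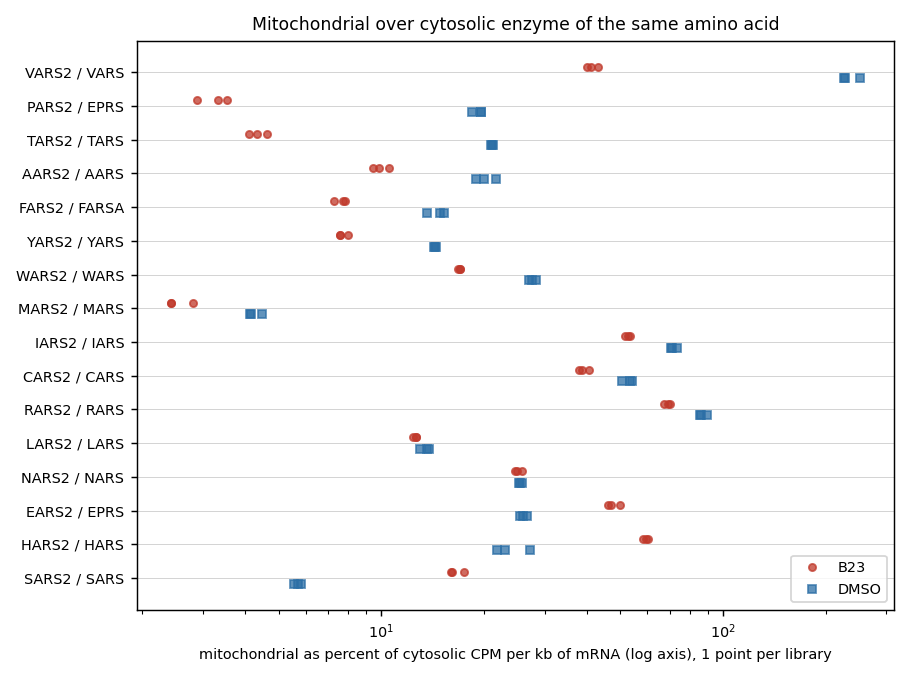
Mitochondrial enzyme as a percentage of the cytosolic enzyme of the same amino acid, in CPM per kb of mRNA (x axis, log scale), with B23 libraries as circles and DMSO libraries as squares. Pairs are ordered from VARS2 over VARS, with a mean of 41.3% in B23 and 234% in DMSO, at the top to SARS2 over SARS, with 16.5% in B23 and 5.69% in DMSO, at the bottom.

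Cytosolic members were also divided by whether they are known ATF4 targets. The 12 listed targets (AARS, CARS, EPRS, GARS, IARS, LARS, MARS, NARS, SARS, TARS, WARS and YARS) had a median log2 difference of 0.11, with 6 higher, 4 lower and 0 past 2-fold. The other 8 (DARS, FARSA, FARSB, HARS, KARS, QARS, RARS and VARS) had a median of 0.93, with 6 higher and 2 lower. Among all tested genes, 39.6% were called higher and 49.0% lower. The first median ran from -0.33 to 0.22 over the scalings and the second from 0.58 to 1.04, and no test of the difference between these lists was made.

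Genes of the amino acid stress pathway were mostly lower. Of 9 such genes, 7 fell, 1 rose and 1 was not called by limma, beside 49.0% of all tested genes called lower and 39.6% called higher. Their median log2 difference was -0.64, against -0.10 for all tested genes. Among the 7 that fell, CEBPB has 1 coding exon, ATF4 and DDIT3 have 2, CHAC1 has 3 and TRIB3 has 4. IMPACT has 12 and EIF2AK4 has 39. Over all tested coding genes, 82.3% with 1 coding exon and 64.7% with 2 to 4 were called lower, with medians of -0.89 and -0.44. A link to exon number was not tested. ATF4 itself was at 420.4 ± 11.5 CPM in B23 and 580.8 ± 29.7 CPM in DMSO (SD, n = 3 each), 1.38-fold lower. CHAC1, a glutathione-degrading enzyme gene and ATF4 target, was at 1.78 ± 0.402 CPM in B23 and 40.9 ± 0.350 CPM in DMSO, 22.9-fold lower. CEBPB, which pairs with ATF4 on DNA, fell 3.71-fold, TRIB3, an ATF4 target that feeds back on it, fell 1.99-fold, and DDIT3 fell 1.57-fold. The gene of GCN2, the kinase that senses uncharged tRNA, is EIF2AK4, which fell 1.32-fold, and IMPACT, an inhibitor of that kinase, fell 1.93-fold, while its activator GCN1 rose 1.28-fold. GCN1 turned to -0.15 after quantile normalization. ASNS, the asparagine synthetase gene and a classical ATF4 target, had overlapping groups (398.9 ± 2.95 CPM in B23 and 388.8 ± 21.7 CPM in DMSO) and was not called (adjusted p = 0.343). With each of the 4 other scalings it was called, higher in 2 and lower in 2.

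ATF4 binds with C/EBP proteins to elements whose core is TGATGNAA. RefSeq promoter windows on GRCh38.p14, from 250 bases before to 50 after a gene's start, were matched for 30 of the 36 members. That core, on either strand, was found in 8 of the 30, against 4.46% of 27305 genes with a window. Of these 8, 7 were cytosolic and on the list of ATF4 targets, and the other was the mitochondrial YARS2. Windows were matched for 16 cytosolic and 14 mitochondrial members. Of the listed ATF4 targets 10 had a window, and 7 of those 10 carried the core. The 7 had log2 differences from -0.36 (MARS) to 0.77 (TARS). The stretches around the core are shown because these genes share the core, while their log2 differences ran both ways and not all were called. Each is written 5′ to 3′ on the strand that carries the core, with the core in capitals:
AARS: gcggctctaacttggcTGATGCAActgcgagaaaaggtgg
CARS: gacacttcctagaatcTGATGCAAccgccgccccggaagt
GARS: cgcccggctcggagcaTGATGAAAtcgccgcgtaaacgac
IARS: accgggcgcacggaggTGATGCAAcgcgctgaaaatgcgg
MARS: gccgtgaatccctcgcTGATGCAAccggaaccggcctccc
NARS: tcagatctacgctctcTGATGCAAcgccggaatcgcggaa
TARS: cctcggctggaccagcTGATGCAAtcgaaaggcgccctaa
YARS2: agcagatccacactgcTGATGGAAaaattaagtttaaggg

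These stretches lie on GRCh38.p14 at chr16:70289670-70289709 (AARS, plus strand), chr11:3057402-3057441 (CARS, plus strand), chr7:30594829-30594868 (GARS, minus strand), chr9:92293687-92293726 (IARS, plus strand), chr12:57488048-57488087 (MARS, minus strand), chr18:57621799-57621838 (NARS, minus strand), chr5:33440951-33440990 (TARS, minus strand) and chr12:32756071-32756110 (YARS2, minus strand). In 6 of the 7 cytosolic genes the core read TGATGCAA, and in GARS it read TGATGAAA. The core began between 33 bases before and 15 bases after the start of the gene in CARS, GARS, IARS, MARS, NARS and TARS, and 187 bases before it in AARS. The E-box CACGTG, a site of MYC and related factors, was found in CARS2, EARS2, IARS and MARS2, 4 of 30 members, against 8.77% of genes with a window. A match describes the letters only, and no binding was measured.

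Genes that assist tRNA charging also split. Of 16 such genes outside the member list, 7 rose, 8 fell and 1 was not called by limma, beside 39.6% of all tested genes higher and 49.0% lower. Their median log2 difference was -0.13, close to the -0.10 of all tested genes. Mitochondria have no glutaminyl-tRNA synthetase: EARS2 loads glutamate onto the glutamine tRNA and the GatCAB complex converts it. Of its subunits, QRSL1 rose 1.28-fold, while GATB fell 1.54-fold and GATC fell 1.35-fold. SRSF9 and TRIAP1 lie beside GATC, SRSF9 overlapping it with a mean of 178% of it. MTFMT, which formylates the methionine that MARS2 has loaded, was at 7.65 ± 0.623 CPM in B23 and 11.4 ± 1.05 CPM in DMSO (SD, n = 3 each), 1.49-fold lower. That call was lost after quantile normalization.

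TARSL2, a threonyl-tRNA synthetase-like gene, fell 1.41-fold. AARSD1, which removes amino acids wrongly joined to alanine tRNA, rose 3.75-fold from within the span of the read-through gene PTGES3L-AARSD1, whose mean was 96.8% of it. DTD2, a proofreading deacylase gene, fell 4.16-fold, and its relative DTD1 was not called (log2 difference -0.077). DTD1 was called lower without DMSO replicate 1 (-0.11), after quantile normalization and with equal totals of the listed genes, and its sign turned with median-of-ratios scaling and DESeq2. AL139353.1, which overlaps DTD2 on the same strand, had a mean of 174% of it and was not called. Of the pair that makes selenocysteine on its tRNA, PSTK rose 2.11-fold and SEPSECS fell 1.92-fold, and PSTK overlaps IKZF5 and C10orf88, both with higher means. The tRNA exporter gene XPOT was 1.13-fold higher and was called lower after quantile normalization and with equal totals of the listed genes. PTRH2, a peptidyl-tRNA hydrolase gene that overlaps the more abundant CLTC and VMP1, fell 1.73-fold, and TRNT1, which adds CCA ends, fell 1.15-fold, a call that was lost with median-of-ratios scaling, DESeq2 and quantile normalization, the last of which gave a log2 difference of 0.098.

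**Figure D4:**
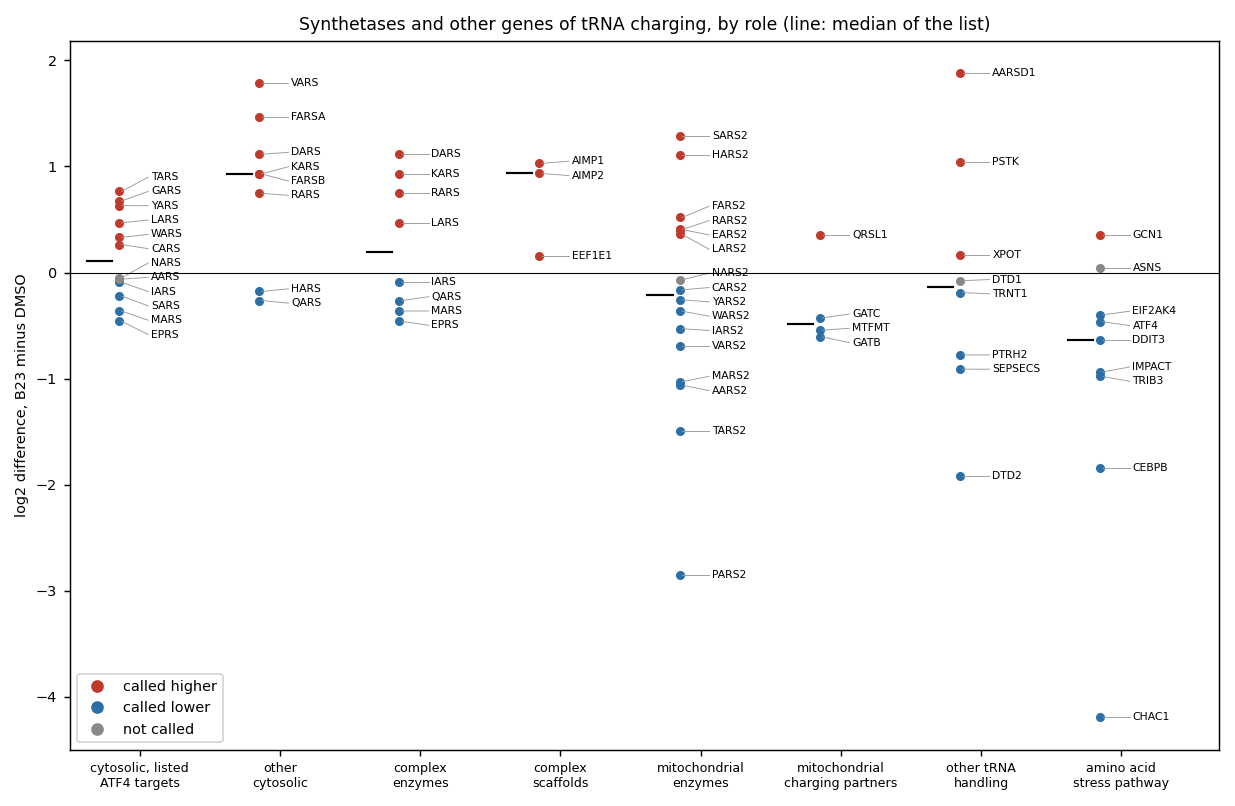
Log2 differences (B23 minus DMSO, y axis) of the synthetases and of other genes of tRNA charging, grouped by role along the x axis, with a line at the median of each list. The listed ATF4 targets lie between -0.46 and 0.77 around a median of 0.11, the other cytosolic members have a median of 0.93, and the amino acid stress genes reach down to -4.20 (CHAC1).

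Levels were compared between genes per kb of mRNA, using the length of 1 GENCODE transcript per gene. Cytosolic members had a median of 57.6 CPM per kb in B23 and 55.8 CPM per kb in DMSO, and mitochondrial members had 12.4 in B23 and 11.9 in DMSO. TARS was highest in B23 at 275 CPM per kb and SARS second at 158, whereas in DMSO SARS led at 185 and TARS followed at 162. VARS stood 20th of 36 in B23 and 31st in DMSO, with 34.7 CPM per kb in B23 and 9.95 in DMSO, the lowest cytosolic level in DMSO. PARS2 was last of all in B23 at 1.45 CPM per kb, against 11.8 in DMSO. TARS2 differed most in its place, at 29th in B23, against 16th in DMSO. GARS and YARS were at 131 CPM per kb each in B23. IARS2 was the highest mitochondrial member in both groups, at 35.8 CPM per kb in B23 and 51.7 in DMSO.

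Several members share a start region with another gene on the opposite strand. Counting genes in the table that start within 1000 bases of a member on the other strand, there were 12 such pairs, HARS with HARS2 counted once, and in 10 both genes were called. They moved the same way in 6 and opposite ways in 4. Of all tested genes 88.6% were called, 39.6% higher and 49.0% lower, so such counts are frequent between unrelated genes too. The shares over unrelated pairs, or over all pairs with nearby starts, were not computed. KARS rose with TERF2IP, EARS2 with UBFD1, RARS2 with ORC3 and FARS2 with LYRM4, whose starts are 105 bases apart and whose differences were 0.52 and 0.54. DARS rose with DARS-AS1, and WARS2 fell with AL359915.2. The 4 opposite pairs were HARS2 with HARS, SARS2 with MRPS12, GARS with GARS-DT and CARS2 with ING1. The calls of HARS and CARS2 were lost with median-of-ratios scaling and DESeq2, and that of CARS2 also with TMM scaling. AARS, which was not called, starts 120 bases from DDX19B, an RNA helicase gene that rose 1.42 on the log2 scale.

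The widest divergence was that of SARS2 and MRPS12, a mitochondrial ribosomal protein gene. MRPS12 was at 18.5 ± 0.461 CPM in B23 and 61.5 ± 4.11 CPM in DMSO (SD, n = 3 each), a log2 difference of -1.70, while SARS2 rose by 1.29. SARS2 also overlaps AC011455.2 on the same strand for 15493 bases, and that row had 44.6 ± 2.54 CPM in B23 and 23.8 ± 0.0531 CPM in DMSO. HARS2 rose by 1.11 and HARS fell by 0.18, from genes that overlap by 437 bases, and HARS2 also overlaps ZMAT2 by 639 bases, a gene that rose (log2 difference 0.80). HARS overlaps WDR55 by 221 bases, which fell (log2 difference -0.44). Nothing in the labels gives the strand setting of the authors' counting, so reads in the overlaps cannot be assigned with certainty. The RefSeq promoter windows of the 2 mitochondrial genes SARS2 and HARS2 are shown because they are partly shared with neighbours whose differences had the opposite sign. Each is written 5′ to 3′ in the direction of the mitochondrial gene, with capitals for bases that also lie in the window of the neighbour (184 bases with HARS, 280 bases with MRPS12), at chr5:140691205-140691504 on the plus strand for HARS2 and chr19:38930714-38931013 on the minus strand for SARS2:
HARS2: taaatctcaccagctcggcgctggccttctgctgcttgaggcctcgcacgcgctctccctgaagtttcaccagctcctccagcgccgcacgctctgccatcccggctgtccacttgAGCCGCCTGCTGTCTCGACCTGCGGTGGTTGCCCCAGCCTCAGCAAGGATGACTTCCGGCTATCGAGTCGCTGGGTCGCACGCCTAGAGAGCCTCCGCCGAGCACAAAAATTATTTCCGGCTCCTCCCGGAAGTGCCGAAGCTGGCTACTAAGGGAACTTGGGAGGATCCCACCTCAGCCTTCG
SARS2: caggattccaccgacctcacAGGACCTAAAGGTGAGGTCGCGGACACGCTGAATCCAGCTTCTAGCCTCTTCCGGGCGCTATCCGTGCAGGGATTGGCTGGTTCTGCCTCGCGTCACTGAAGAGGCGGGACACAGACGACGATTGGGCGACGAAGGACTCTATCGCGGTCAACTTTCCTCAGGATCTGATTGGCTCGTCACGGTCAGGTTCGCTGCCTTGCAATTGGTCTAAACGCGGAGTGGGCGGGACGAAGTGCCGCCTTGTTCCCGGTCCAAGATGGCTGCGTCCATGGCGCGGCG

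Both members with a single coding exon fell. PARS2 has its coding sequence in 1 of its 2 exons and MARS2 consists of a single exon, and both were more than 2-fold lower in B23. Over all 690 tested coding genes with 1 coding exon the median log2 difference was -0.89, with 82.3% called lower and 11.0% called higher, and 22 of them (3.19%) lay below PARS2. Tested genes with 10 to 19 coding exons had a median of 0.12, beside 0.65 for the 16 members of that size, and genes with 20 or more had a median of 0.15, beside -0.076 for 14 members. In that last bin VARS rose the most and AARS2 fell the most. TARS2, with 18 coding exons, lay below the lower quartile of genes of its size, at -0.41. The remaining 4 members, with 5 to 9 coding exons, had a median of 0.074, beside -0.063 for all genes of that size.

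**Figure D5:**
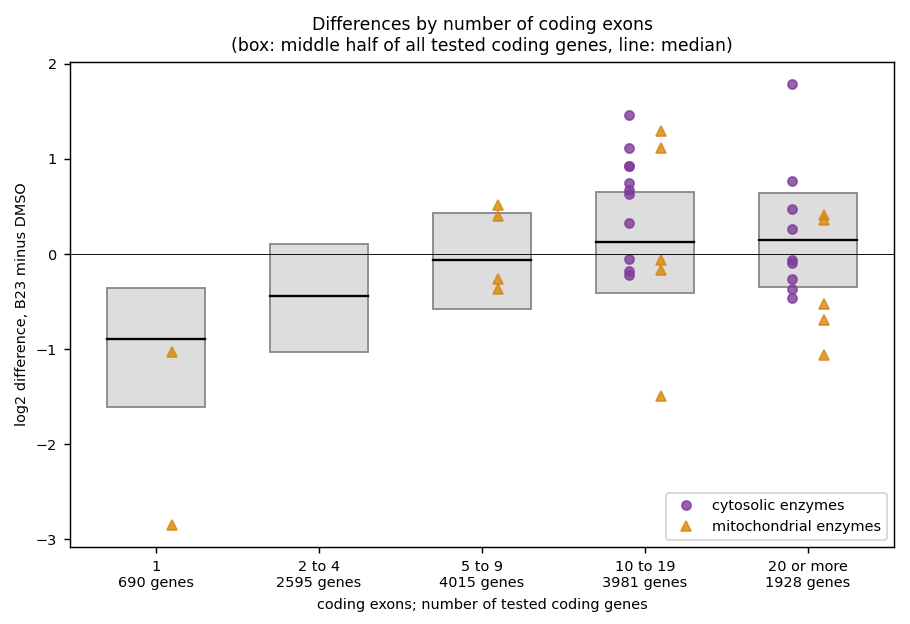
Log2 differences (B23 minus DMSO, y axis) by number of coding exons (x axis), with grey boxes from the lower to the upper quartile of all tested coding genes, lines for their medians, circles for cytosolic enzymes and triangles for mitochondrial enzymes. The medians of all genes run from -0.89 at 1 coding exon to 0.15 at 20 or more, and the 2 members with 1 coding exon, PARS2 and MARS2, are at -2.85 and -1.03.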

How the data were processed

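The authors deposited CPM for 15496 gene symbols in 6 columns, 1 per library, matched to samples through the labels. Per the submitters' processing notes, which give no roles or settings, the build was hg38 and the tools were STAR 2.6.1d, HTSeq, SAMtools and edgeR. Values were whole multiples of 1 read in each library, so reads were recovered (100% whole within 0.001 reads), and 1 read was worth 0.0197 to 0.0217 CPM in B23 and 0.0158 to 0.0164 CPM in DMSO. Column sums were 890367 to 900113 CPM in B23 and 745216 to 753745 CPM in DMSO. The divisor of each library was thus larger than its listed reads. The sources used here do not say whether it includes reads of rows that are not listed, a scaling of library sizes, or both.

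B23 was compared with DMSO by limma 3.58.1 (R 4.3.3) on log2(CPM + 0.5) with trend and robust empirical Bayes, two-sided, for the 14792 genes whose mean reached 1 CPM. The comparison was repeated with pseudocounts of 0.1 and 2, without a filter, with a mean of 5 CPM, with 4 other scalings, without trend, with a replicate block, at an adjusted p under 0.01 and without each library. Recovered reads were tested with edgeR 4.0.16 (13155 genes called) and with DESeq2 1.42.0 (12877 called). The fit was also run on simulated data with few changed genes and no scaling difference between groups. That setting differs from these libraries, so it says nothing about their scaling. Replicates correlated with r of 0.9979 to 0.9988 across genes, which are not independent of each other, and differed by more than sampling noise (chi-square per degree of freedom 2.64 to 6.86).

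Positions, exons and overlaps came from GENCODE 29 on GRCh38, the assembly of hg38, which matched all symbols, using for each gene the basic transcript with the longest coding sequence. Overlapping genes are named where their mean is at least 10% of that of a member. The members and lists were chosen with earlier results of these data known. Per-library values are given for the largest changes of each compartment, for members not called and for pairs of opposite sign.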

Additional observations from a re-analysis of the deposited data

How the results depend on the processing

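Of 33 members called, 27 kept direction and call under all 19 alternatives (15 higher, 12 lower); the exceptions were CARS, LARS, WARS, HARS, IARS and CARS2. Of the cytosolic members, 9 to 12 were called higher (12 as reported) and 4 to 9 lower (6 as reported), with 9 of each after quantile normalization. Of the mitochondrial members, 6 were higher and 8 to 10 lower (9 as reported). The cytosolic and mitochondrial medians moved with scaling, to 0.51 and -0.10 (median-of-ratios), 0.48 and -0.13 (TMM), 0.475 and -0.14 (edgeR), 0.50 and -0.11 (DESeq2), 0.15 and -0.46 (equal totals of the listed genes) and -0.028 and -0.14 (quantile normalization). Their difference of -0.61 became -0.12 (-0.115) after quantile normalization; the cause was not tested. Signs turned for AARS (0.047, 0.015, 0.010 and 0.040 with median-of-ratios, TMM, edgeR and DESeq2), NARS (0.060, 0.029, 0.024 and 0.053) and NARS2 (0.041, 0.010, 0.0050 and 0.034), for IARS (0.018 with median-of-ratios and 0.011 with DESeq2), and after quantile normalization for CARS (-0.13), LARS (-0.027) and WARS (-0.029). Leaving out 1 library gave cytosolic medians of 0.39 to 0.42 and mitochondrial medians of -0.23 to -0.19. Same-numbered B23 and DMSO libraries did not deviate together (r = 0.026, -0.070 and -0.062 across genes), and the fit with a replicate block gave the same counts, with medians of 0.40 and -0.21. Depth did not limit which members could be tested, since each had at least 144 reads in every library.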
